A study of Mus musculus with 6 samples.

Results

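The genes described here are 36 genes of the cellular stress response, read as a pair of arms of 18 genes each. The ATF4 arm holds Atf4 and genes that its protein is known to switch on. The ER arm holds chaperones, folding enzymes and quality control factors of the endoplasmic reticulum (ER). Members were chosen by gene name from a list, and each was read from the probe set with the highest mean over the arrays. All 36 were measured, among 12394 genes in all, and 20 of them have several probe sets on the array.

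The study profiled total RNA of subcutaneous white adipose tissue (IWAT in the labels) from mice on Affymetrix expression arrays. The YY1bKO group (3 arrays) carried floxed Yy1 alleles on both chromosomes together with Cre recombinase under the Ucp1 promoter, and the labels call it a brown fat specific knockout of Yin Yang 1. The control group (3 arrays) carried the same floxed alleles without Cre. All mice were on a mixed C57BL6 and 129 background, were 8 weeks old and received a high fat diet for 2 weeks. Ucp1-driven Cre is active in thermogenic adipocytes, which are only some of the cells of this tissue, and no array of a Cre-only group was analysed here. The series title concerns secreted proteins, energy expenditure and obesity caused by diet. The labels do not say that the replicates are separate animals, so the p-values cover only the variation among these arrays, which may be technical. In bulk tissue, fewer cells of a type and less RNA per cell cannot be told apart.

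Stress of several kinds converges on ATF4. Kinases that sense amino acid shortage, unfolded protein, heme deficiency or viral RNA phosphorylate the translation factor eIF2, which slows protein synthesis in general while the Atf4 message is translated more, so ATF4 activity can change with no change of its mRNA. ATF4 then raises genes of amino acid import and synthesis and further transcription factors. The ER has sensors of its own: ATF6 is cut and moves to the nucleus, and IRE1 splices the Xbp1 message, and both raise chaperones such as Hspa5. PERK, which is an ER sensor and also an eIF2 kinase, links the arms, and their target genes can still move separately.

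The arms differ in the response elements near their gene starts, which are shown here because they are known routes by which each arm is controlled. RefSeq promoter windows (GRCm38.p6) of 300 bases, 250 before to 50 after the annotated start, were found for 31 of the 36 genes. Slc7a5, Cth, Eif4ebp1, Hyou1 and Atf6 were not matched to a window. The C/EBP-ATF response element, the composite site known to be bound by ATF4, was searched as TGATGNAA on both strands. It was present in 6 of 15 genes of the ATF4 arm (40.0%), in 1 of 16 genes of the ER arm (6.25%) and in 1219 of all 27025 genes with a window (4.51%). A gene with several windows was counted if any of them held a match. The Vldlr window at the gene start (chr19:27216234-27216533) had 0 matches. Its match lies in a further window (chr19:27216770-27217069), at a start inside the annotated gene. The Slc7a11 window (chr3:50443564-50443863) also lies inside the annotated gene (chr3:50364936-50499087). Each match is printed below as 20 bases in the orientation of the motif, with the motif in capitals.
Asns: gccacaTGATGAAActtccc
Atf3: acttggTGATGCAAgtgcga
Chac1: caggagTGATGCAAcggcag
Slc7a11 first: tgtggcTGATGCAAacctgg
Slc7a11 second: gcatgaTGATGCAAattctc
Trib3: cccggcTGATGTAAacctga
Vldlr: gagcgcTGATGCAActattg
Herpud1: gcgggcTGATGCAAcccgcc
In GRCm38.p6, with positions counted from the annotated start and the strand on which the motif reads, these are Asns chr6:7693219-7693238 (minus strand, positions -23 to -16), Atf3 chr1:191183430-191183449 (plus strand, positions -110 to -103), Chac1 chr2:119351043-119351062 (minus strand, positions -193 to -186), Slc7a11 first chr3:50443666-50443685 (minus strand, positions -66 to -59), Slc7a11 second chr3:50443647-50443666 (plus strand, positions -47 to -40), Trib3 chr2:152344033-152344052 (plus strand, positions 15 to 22), Vldlr chr19:27216814-27216833 (minus strand, positions -200 to -193), Herpud1 chr8:94386311-94386330 (minus strand, positions -112 to -105).

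The ER stress response element, the site known to be used by ATF6, was searched as CCAAT followed after 9 bases by CCACG, on both strands. It was present in 0 of 15 genes of the ATF4 arm, in 6 of 16 genes of the ER arm (37.5%) and in 37 of all 27025 genes (0.137%). The matches are printed in the orientation of the motif, with its fixed letters in capitals.
Calr: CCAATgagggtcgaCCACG
Canx: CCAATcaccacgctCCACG
Dnajc3: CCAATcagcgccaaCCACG
Hsp90b1 first: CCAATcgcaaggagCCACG
Hsp90b1 second: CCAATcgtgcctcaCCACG
Hspa5: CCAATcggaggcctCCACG
Pdia6: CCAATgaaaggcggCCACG
These lie at Calr chr8:84847075-84847093 (plus strand, positions -162 to -144), Canx chr11:50325800-50325818 (minus strand, positions -145 to -127), Dnajc3 chr14:118937827-118937845 (plus strand, positions -105 to -87), Hsp90b1 first chr10:86705638-86705656 (minus strand, positions -212 to -194), Hsp90b1 second chr10:86705533-86705551 (plus strand, positions -107 to -89), Hspa5 chr2:34772025-34772043 (plus strand, positions -65 to -47), Pdia6 chr12:17266491-17266509 (plus strand, positions -98 to -80). No gene of either arm had both elements, and no matches of different motifs overlapped. The unfolded protein response element TGACGTGG, known from XBP1, was in 0 genes of either arm, against 193 of all genes (0.714%). A match describes letters in this window and not binding, and the arms were defined partly from what is known of these genes, so the motif counts are not independent of the choice of genes.

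Longer stretches are given for 3 genes whose values are described below, as the 250 bases before the start on the gene's own strand, with the motif letters in capitals. Asns and Chac1 were chosen after their values were seen, as genes with the C/EBP-ATF element and high differences, and Hspa5 encodes the best known ER chaperone. The 6 genes of the ATF4 arm with the element did not all separate the groups. Asns, Chac1 and Trib3 were higher in YY1bKO without overlap (log2 differences 0.86, 1.17 and 0.94). Atf3, Slc7a11 and Vldlr had negative differences with overlapping groups (-0.42 ± 0.22, -0.24 ± 0.16 and -0.25 ± 0.30, SE), which do not establish a direction. The signal of Slc7a11 was also under the lower quartile of every array. Ddit3 and Atf5 were higher with no match in their windows. The stretches are chr6:7693210-7693459 (minus strand) for Asns, chr2:119350992-119351241 (plus strand) for Chac1, where the element reads on the opposite strand, and chr2:34771840-34772089 (plus strand) for Hspa5.
Asns: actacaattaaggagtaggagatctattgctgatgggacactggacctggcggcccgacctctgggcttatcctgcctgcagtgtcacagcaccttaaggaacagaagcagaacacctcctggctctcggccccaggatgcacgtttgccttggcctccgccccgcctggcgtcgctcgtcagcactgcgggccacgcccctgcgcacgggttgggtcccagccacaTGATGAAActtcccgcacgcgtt
Chac1: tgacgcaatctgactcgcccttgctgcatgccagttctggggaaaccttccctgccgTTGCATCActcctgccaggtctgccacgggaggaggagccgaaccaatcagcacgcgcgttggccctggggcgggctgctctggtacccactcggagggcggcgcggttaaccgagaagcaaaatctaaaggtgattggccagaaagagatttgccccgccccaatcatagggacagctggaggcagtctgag
Hspa5: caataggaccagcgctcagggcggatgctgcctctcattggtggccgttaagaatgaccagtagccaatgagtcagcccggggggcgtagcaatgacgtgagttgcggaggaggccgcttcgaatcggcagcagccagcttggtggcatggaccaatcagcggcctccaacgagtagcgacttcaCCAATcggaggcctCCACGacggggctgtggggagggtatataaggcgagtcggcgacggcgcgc

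**Figure D1:**
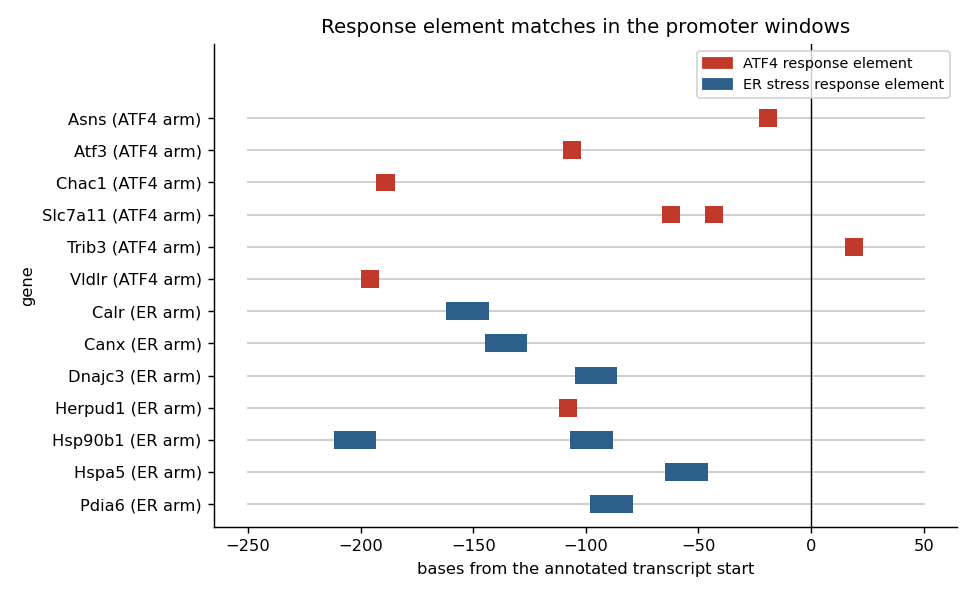
Positions of the response elements in the promoter windows, in bases from the annotated transcript start (vertical line), for the 13 genes with a match. For Vldlr and Slc7a11 that start lies inside the annotated gene. The C/EBP-ATF element marks 6 genes of the ATF4 arm and Herpud1, and the ER stress response element marks 6 genes of the ER arm.

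The arrays carry the adipose label plainly and differ from each other in adipocyte markers and in neighbouring tissue. Adiponectin (Adipoq) ranged from 15948.4 to 20044.7 intensity units over the 6 arrays. Of 6 measured adipocyte markers 5 were higher in YY1bKO (51.0% of all genes) and 1 lower. Pnpla2 (log2 difference 1.00) and Cidec (0.54) were higher without overlap, as were 11.5% of all genes. The centred mean of the list was 0.13, -0.32 and -0.19 on control replicates 1 to 3, and 0.08, 0.04 and 0.26 in YY1bKO. Yy1 read 1118.1, 1357.5 and 1179.3 in YY1bKO and 1287.5, 1469.7 and 1568.2 in control (log2 difference -0.24 ± 0.12 SE, limma adjusted p = 0.574), with overlapping groups. Its other probe sets gave -0.07, -0.19 and -0.11, of which the one at -0.19 was lower in YY1bKO without overlap. Whether its probes lie in the deleted part was not determined here, and Ucp1-driven Cre does not act in every cell of the tissue. Ucp1 read 1610.2, 2062.0 and 1929.2 in YY1bKO and 51.5, 50 and 42.1 in control (5.25 ± 0.14, limma adjusted p = 1.91e-04), and the 8 thermogenic adipocyte markers summed to between 9120.5 and 10130.2 in YY1bKO and between 1524.5 and 3043.3 in control. Control replicate 2 was high in epithelial markers (8 skin markers summed to 285.4 to 307.0 in YY1bKO and 227.6 to 11682.9 in control, 8 mammary markers to 192.6 to 396.4 in YY1bKO and 186.0 to 4625.6 in control). The keratin Krt14 (5585.1) and desmoplakin, Dsp (4075.2), general epithelial genes, made up most of its skin sum, while Krt1 (17.7), Flg (10.1), Csn2 (15.3), Csn3 (13.5) and Wap (28.8) were as low as on other arrays. YY1bKO replicate 1 was high in skeletal muscle markers (8 markers, 750.1 to 4074.5 in YY1bKO and 457.8 to 665.0 in control). B cell markers (7 of 8 measured) summed to 290.0 to 4317.5 in YY1bKO and 347.5 to 8980.6 in control, highest in control replicate 3. No marker reads 0 on these arrays, whose values never reach 0.

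Across the comparison of YY1bKO with control, 0 of the 36 members passed an adjusted p of 0.05 in limma, where 4 of 12394 genes did (0.0323%), all higher in YY1bKO. At an unadjusted p under 0.05, 6 of 18 members of the ATF4 arm were higher in YY1bKO (Trib3, Eif4ebp1, Asns, Ddit3, Chac1 and Atf5) and 0 were lower. Over all genes 8.45% were higher and 1.99% lower at that threshold. In the ER arm 0 of 18 were higher and 1, Edem1, was lower. Groups did not overlap, with all 3 YY1bKO arrays above all 3 control arrays, for the same 6 members of the ATF4 arm and for 1 of the ER arm, against 11.5% of all genes. Groups did not overlap in the lower direction for 0 members of the ATF4 arm and 2 of the ER arm, against 5% of all genes. For a single gene the exact permutation test of 3 arrays against 3 cannot go below p = 0.1, and each member without overlap reached that value.

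The arms also differed in how widely their members spread. The ATF4 arm ran from -0.53 (Slc7a5) to 1.17 (Chac1) on the log2 scale, with 11 members higher and 7 lower in YY1bKO. Only 3 of its 18 members lay within 0.2 of no difference, 6 lay above 0.4 and 3 below -0.4. The ER arm ran from -0.36 (Sel1l) to 0.24 (Dnajb9), with 10 members higher and 8 lower, and 15 of 18 lay within 0.2. Among all genes 51.0% were higher in YY1bKO, 64.4% lay within 0.2, 6.96% above 0.4, and 868 of 12394 genes below -0.4. The median difference was 0.15 for the ATF4 arm, 0.01 for the ER arm and 0.00 for all genes. The arm medians thus lay 0.14 apart. Between single arrays of a group, the ATF4 minus ER difference of centred medians had an SD of 0.14. That SD describes single arrays, while the 0.14 between the medians comes from groups of 3 arrays, so the values are not on the same footing. The members also differed in precision, with a median SE of 0.21 in the ATF4 arm and 0.11 in the ER arm.

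The ATF4 median depended on single control arrays. It was -0.01 without control replicate 3, 0.26 without control replicate 2, and 0.37 without both control replicate 2 and YY1bKO replicate 1, the arrays high in epithelial and muscle markers. The count of members higher at an unadjusted p under 0.05 was 4 without YY1bKO replicate 3, where Chac1 and Atf5 no longer passed and the share of all genes was 4.55%. It was 5 without control replicate 3, where Atf5 no longer passed and the share of all genes was 7.29%. Without control replicate 2 and YY1bKO replicate 1 together it was also 4 (Asns, Eif4ebp1, Trib3 and Slc3a2), with 3.71% of all genes. Edem1 no longer passed as lower without YY1bKO replicate 2 or 3 or without control replicate 1 or 2.

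Among the markers of other cells, medians were positive for endothelial cells, fibroblasts and skeletal muscle (0.87). The centred mean of the muscle list was high on YY1bKO replicate 1 alone (2.62). It was -0.66 and -0.51 on YY1bKO replicates 2 and 3, and -0.28, -0.55 and -0.62 on control replicates 1 to 3. Of the muscle markers, Acta1 was higher in YY1bKO without overlap (2.08). Medians were negative for B cell (-0.67), T cell (-0.39), plasma cell (-0.17), macrophage (-0.04), skin (-1.07) and mammary (-0.60) markers. The skin and mammary lists were high on control replicate 2 alone (centred means 3.01 and 2.14). Endothelial markers were higher in 8 of 8 genes, with a median of 0.33 and 1 at an unadjusted p under 0.05, and summed to 4687.2 to 5880.3 in YY1bKO and 3331.2 to 5563.9 in control. Fibroblast markers were higher in 7 of 8 genes, with a median of 0.29 and 3 at that threshold, and summed to 41240.8 to 46480.5 in YY1bKO and 30669.4 to 51105.9 in control. Over all genes 51.0% were higher, and 8.45% were higher at that threshold. The endothelial and fibroblast medians were above the 0.15 of the ATF4 arm. Both lists were low on control replicates 2 and 3 and high on control replicate 1, so the sums of the groups overlapped, and their part in the ATF4 differences was not tested.

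**Figure D2:**
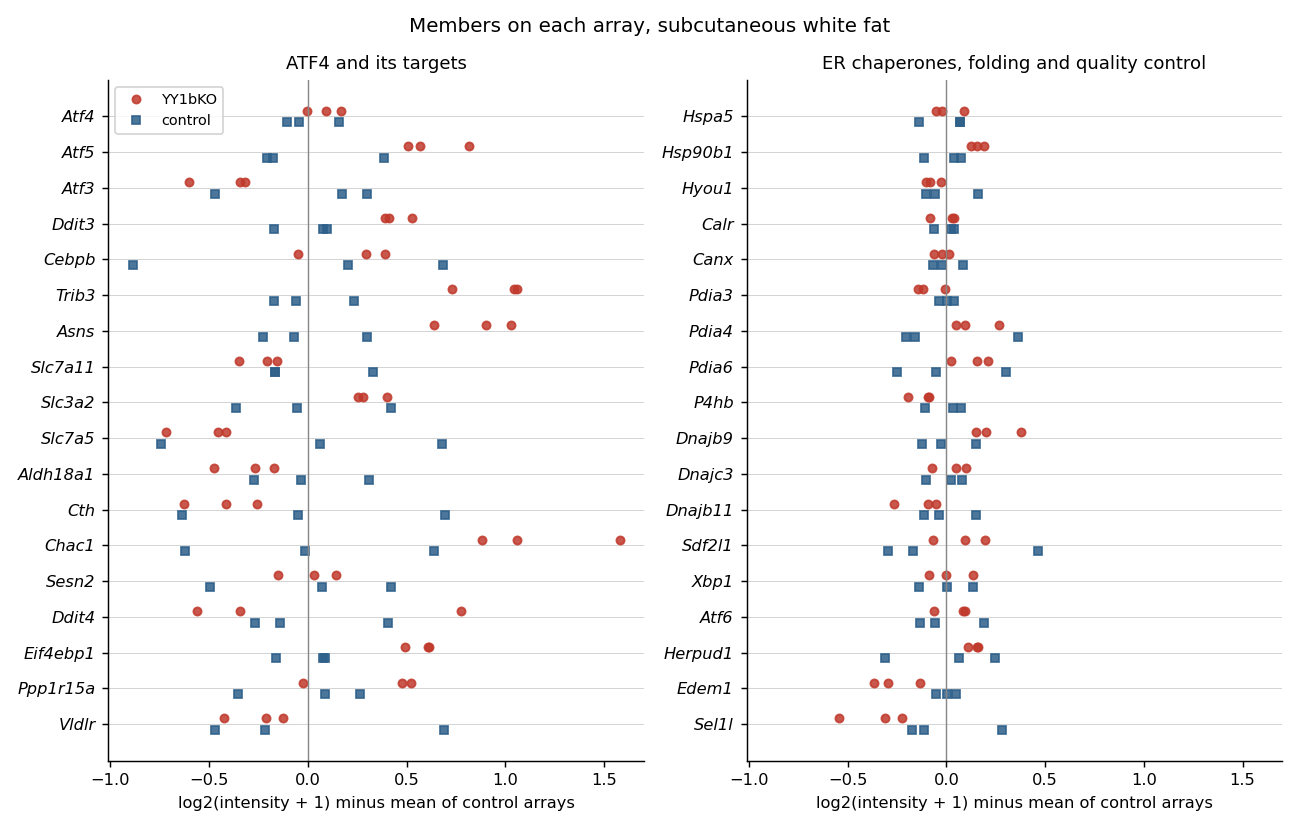
Each point is 1 array, plotted as log2(intensity + 1) minus the mean of the 3 control arrays, for the 18 members of each arm (circles YY1bKO, squares control). Trib3, Asns, Eif4ebp1, Ddit3, Chac1 and Atf5 have all YY1bKO points right of all control points, while most ER genes have mixed points near 0.

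Among the regulators of the ATF4 arm, the message of Atf4 itself showed a small difference with a narrow interval. Atf4, which encodes the factor, read 1495.7, 1601.1 and 1685.0 in YY1bKO and 1393.8, 1673.9 and 1453.7 in control. The groups overlapped, with control replicate 2 close to the highest YY1bKO array, and the difference was 0.08 (95% CI -0.18 to 0.35, limma adjusted p = 0.839). A second probe set of Atf4 was lower in YY1bKO without overlap (-0.34), so the brighter probe sets of this gene disagree in direction. The remaining one differed by -0.07, at mean intensities of 14.4 in YY1bKO and 15.3 in control, under the lower quartiles of the arrays.

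Trib3 encodes a pseudokinase that is induced by ATF4 and CHOP and is known to dampen their activity and Akt signalling. It read 169.2, 210.6 and 213.2 in YY1bKO and 119.8, 97.6 and 90.2 in control. Every YY1bKO array was above every control array, with YY1bKO replicate 1 the lowest of its group. The difference was 0.94 ± 0.15 (1.92-fold, limma adjusted p = 0.147), which ranked 62nd of all genes by p, and the second probe set gave 1.39, also without overlap. No member came closer to the adjusted threshold.

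Ddit3 encodes CHOP, a C/EBP family factor known for its part in stress-induced cell death. It read 487.8, 450.1 and 443.4 in YY1bKO and 361.7, 300.5 and 357.3 in control. The groups were tight and did not overlap (0.44 ± 0.11, limma adjusted p = 0.275). Atf5, a relative of ATF4 that is translated under stress in the same way and is known in the mitochondrial stress response, read 1010.7, 1055.0 and 1253.6 in YY1bKO and 928.2, 614.8 and 628.6 in control. Its groups did not overlap, although control replicate 1 came near the YY1bKO arrays (0.63 ± 0.19, limma adjusted p = 0.339).

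The remaining regulators did not follow these. Atf3, an immediate stress factor, read 221.2, 217.0 and 181.1 in YY1bKO and 311.0, 339.4 and 198.9 in control, a difference of -0.42 ± 0.22 with overlapping groups (limma adjusted p = 0.588). Cebpb, which encodes a C/EBP factor of adipocyte differentiation that pairs with ATF4, read 3154.1, 2322.7 and 2950.9 in YY1bKO and 2767.3, 3871.2 and 1299.3 in control. Its control arrays alone spanned more than the YY1bKO arrays, and its difference was 0.21 ± 0.40. Of the 6 regulators 5 were higher in YY1bKO, as were 51.0% of all genes, with a median of 0.33. At an unadjusted p of 0.05, 3 passed as higher, against 8.45% of all genes.

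The 7 genes of amino acid supply split in direction. Asns encodes asparagine synthetase, a standard target of ATF4 under amino acid shortage. It read 1200.3, 998.8 and 1307.2 in YY1bKO and 789.4, 610.0 and 547.1 in control. The groups did not overlap (0.86 ± 0.17, 1.81-fold, limma adjusted p = 0.211), and the second probe set gave 0.89. Chac1 encodes an enzyme that breaks down glutathione and is known as a target of the ATF4 and CHOP branch. It read 304.0, 268.5 and 436.3 in YY1bKO and 226.7, 144.0 and 94.0 in control. Its difference was the highest of the 36 members and among the least precise (1.17 ± 0.35, 2.25-fold, 95% CI 0.32 to 2.02, limma adjusted p = 0.338), with control values spread over a wide range and no overlap.

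The transporters and synthetic enzymes of the same role did not share the differences of Asns and Chac1. Slc3a2, the heavy chain shared by several amino acid exchangers, was 0.31 ± 0.20 higher with overlapping groups (limma adjusted p = 0.670). Its light chain partners had negative differences. Slc7a5, the large neutral amino acid exchanger, differed by -0.53 ± 0.35, with 114.8, 137.8 and 141.9 in YY1bKO and 112.7, 304.2 and 197.9 in control. Slc7a11, the cystine and glutamate exchanger, differed by -0.24 ± 0.16, but its signal was under the 25th percentile of each array, where the array hardly separates signal from background. Aldh18a1, which makes the precursor of proline, differed by -0.31 ± 0.17, and its 5 probe sets ran from -0.31 to -0.04, with 1 of them (-0.23) lower without overlap. Cth, which makes cysteine, differed by -0.43 ± 0.33 and was highest in control replicate 1 (243.0). On the probe sets used the groups overlapped for all of these, and the median of the 7 genes was -0.24.

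Eif4ebp1 stood apart from the other brakes on growth signalling. It encodes 4E-BP1, which holds back cap-dependent translation when mTORC1 is inactive and is a known ATF4 target. It read 4191.4, 3847.5 and 4172.4 in YY1bKO and 2903.2, 2447.8 and 2882.3 in control. Both groups were tight and far apart (0.57 ± 0.11, 1.49-fold, limma adjusted p = 0.175), and its other probe sets gave 0.74 and 0.66, also without overlap. Sesn2 and Ddit4, which encode stress-induced inhibitors of mTORC1, differed by 0.01 ± 0.24 and -0.04 ± 0.38. Ddit4 was high on YY1bKO replicate 3 alone (3017.1, against 1193.7 and 1389.5 on the other YY1bKO arrays and 1465.3 to 2340.4 in control).

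Of the last members of the arm, Ppp1r15a, which encodes GADD34, the subunit that directs eIF2 dephosphorylation, differed by 0.32 ± 0.22 with overlapping groups (limma adjusted p = 0.683). Vldlr, a lipoprotein receptor known to be raised through ATF4 in stressed liver, differed by -0.25 ± 0.30 and was high on control replicate 1 (3360.6). Its 4 probe sets ran from -0.25 to -0.06.

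**Figure D3:**
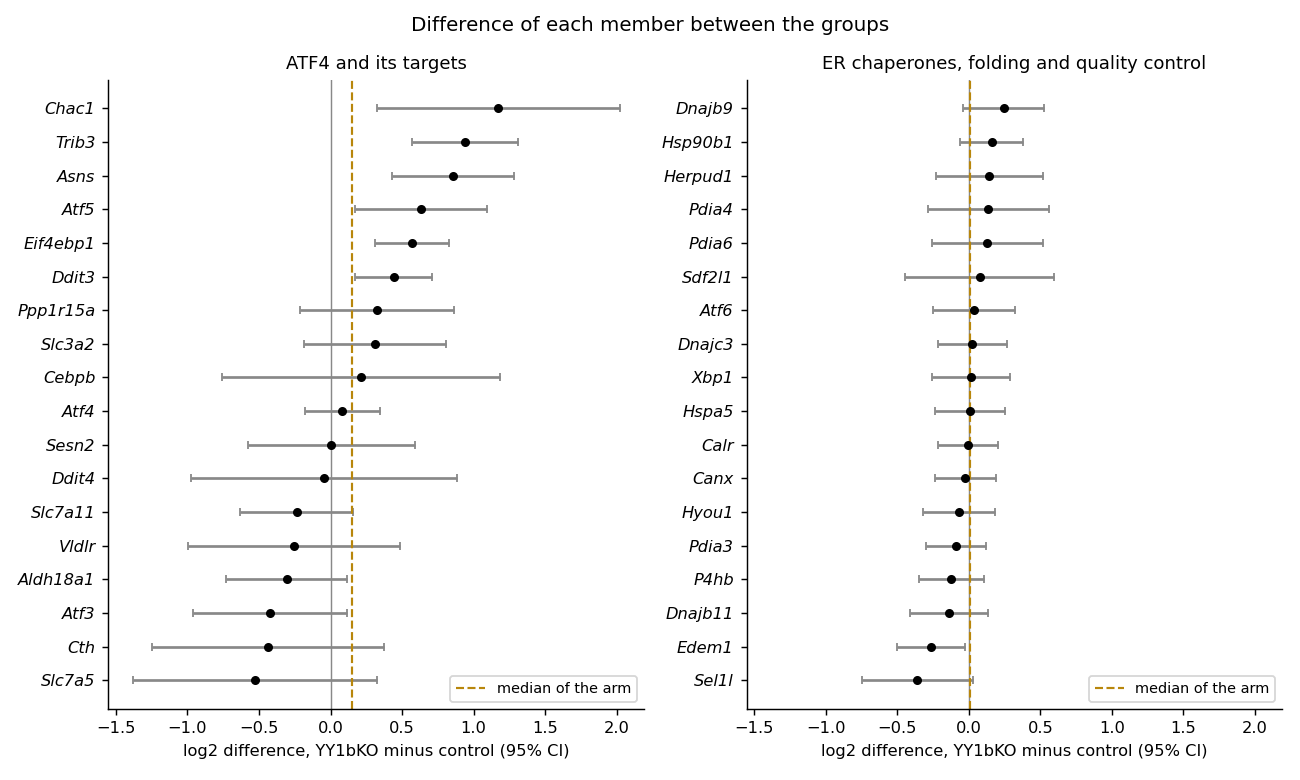
Log2 difference of each member, YY1bKO minus control, with its 95% confidence interval from limma, ordered within each arm. The dashed line is the median of the arm, 0.15 for the ATF4 arm and 0.01 for the ER arm, and the intervals of 6 ATF4 genes and of Edem1 leave out 0.

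In the ER arm the major chaperones lay near no difference, and with narrow intervals. Hspa5 encodes BiP, the HSP70 of the ER lumen and the usual readout of its unfolded protein response. It read 4234.6, 4331.4 and 4680.7 in YY1bKO and 4606.8, 3994.5 and 4605.4 in control. The arrays of the groups mixed (0.01 ± 0.10, 95% CI -0.24 to 0.25, limma adjusted p = 0.989). Hsp90b1 encodes GRP94, the HSP90 of the ER. It read 3073.9, 3216.7 and 3134.0 in YY1bKO and 2892.8, 2602.8 and 2960.5 in control. It was the ER member whose groups did not overlap in the higher direction, by a small difference (0.16 ± 0.09, limma adjusted p = 0.625), and its second probe set gave 0.01. Hyou1, a large HSP70 relative of the ER, differed by -0.07 ± 0.10.

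The lectin chaperones, which hold glycoproteins while they fold, lay close to no difference. Calreticulin (Calr) differed by -0.01 (95% CI -0.22 to 0.21) and calnexin (Canx) by -0.02 (95% CI -0.24 to 0.19). The 4 protein disulfide isomerases, which form and rearrange disulfide bonds, ran from -0.12 (P4hb) to 0.14 (Pdia4), with Pdia3 at -0.09 and Pdia6 at 0.13. None of the 4 separated the groups.

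Among the co-chaperones Dnajb9 was the highest member of the ER arm. Its product ERdj4 is an IRE1 and XBP1 target that helps BiP and degradation. It read 1442.0, 1230.4 and 1274.7 in YY1bKO and 1231.3, 1016.5 and 1089.5 in control. YY1bKO replicate 2 was just below control replicate 1, so the groups overlapped by that pair alone (0.24 ± 0.12, limma adjusted p = 0.547). Without control replicate 1 it passed an unadjusted p of 0.05 as higher in YY1bKO. Dnajc3, which encodes the eIF2 kinase inhibitor p58IPK, differed by 0.03 and Dnajb11, another J protein of BiP, by -0.14. Sdf2l1, a stress-induced partner of Dnajb11, differed by 0.07 with a wide interval (95% CI -0.45 to 0.60).

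The messages of the arm's transcription factors lay close to no difference. Xbp1, whose mRNA is spliced by IRE1, read 3778.2, 3562.8 and 4153.6 in YY1bKO and 3443.1, 4153.5 and 3795.4 in control. The groups overlapped fully (0.01 ± 0.11, 95% CI -0.26 to 0.29), and the 4 probe sets of this gene ran from -0.01 to 0.05. The arrays do not report splicing of Xbp1 or cleavage of ATF6. Atf6 differed by 0.04 ± 0.12.

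The genes of ER-associated degradation, which returns misfolded proteins to the proteasome, held the lowest members of the arm. Edem1, a mannosidase-like factor that picks glycoproteins for disposal, read 1296.9, 1102.5 and 1159.2 in YY1bKO and 1426.3, 1474.1 and 1371.5 in control. Every YY1bKO array was below every control array (-0.27 ± 0.10, limma adjusted p = 0.437), and the second probe set gave -0.28. Sel1l, the partner of the ubiquitin ligase HRD1, read 294.6, 250.5 and 312.7 in YY1bKO and 445.5, 324.3 and 338.5 in control. Its groups did not overlap either (-0.36 ± 0.16, limma adjusted p = 0.512), but its other probe sets gave 0.10, -0.31 and -0.03, with overlap in each. Herpud1, a membrane protein of the same ligase complex and the ER member with a C/EBP-ATF element in its window, differed by 0.14 ± 0.15.

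Several ER members peaked on control replicate 3, the array with the highest lymphocyte marker sums. Others, such as Hspa5, Xbp1, P4hb and Canx, peaked on other arrays. Pdia4 read 395.0, 460.7 and 407.9 in YY1bKO and 331.6, 342.9 and 491.4 in control. Pdia6 read 878.7, 1000.1 and 960.9 in YY1bKO and 832.6, 725.9 and 1067.2 in control. Sdf2l1 read 214.7, 240.4 and 258.0 in YY1bKO and 200.3, 183.0 and 310.9 in control. In each the other control arrays were the lowest of all 6, and without control replicate 3 Pdia4 passed an unadjusted p of 0.05 as higher in YY1bKO. Those low arrays include control replicate 2, whose B and T cell marker sums (3379.8 and 1634.5) were above those of YY1bKO replicate 3 (1598.9 and 1143.7). Whether lymphocyte content plays a part in these peaks was not tested. Jchain, the joining chain of secreted antibodies, read 153.6, 1795.3 and 707.8 in YY1bKO and 125.4, 1024.7 and 2662.5 in control. Other plasma cell markers peaked elsewhere, Sdc1 (1370.4) and Prdm1 (204.4) on control replicate 2 and Irf4 (709.4) on YY1bKO replicate 3. Tnfrsf17 was highest on control replicate 3 (52.9). The centred mean of the plasma cell list was highest on control replicate 2 (0.67, against 0.36 on control replicate 3). Plasma cell markers (6 of 8 measured) summed to 4423.2 to 5951.9 in YY1bKO and 4029.8 to 7042.7 in control. That list includes Xbp1, itself a member of the ER arm, which gave 3443.1 to 4153.6 of each sum. The sums are therefore not independent of the arm. With the mean of the B and T cell markers as a covariate, the median was 0.10 for the ATF4 arm and 0.00 for the ER arm, and 7 members of the ATF4 arm were higher at an unadjusted p under 0.05, where the share of all genes was 9.4%.

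**Figure D4:**
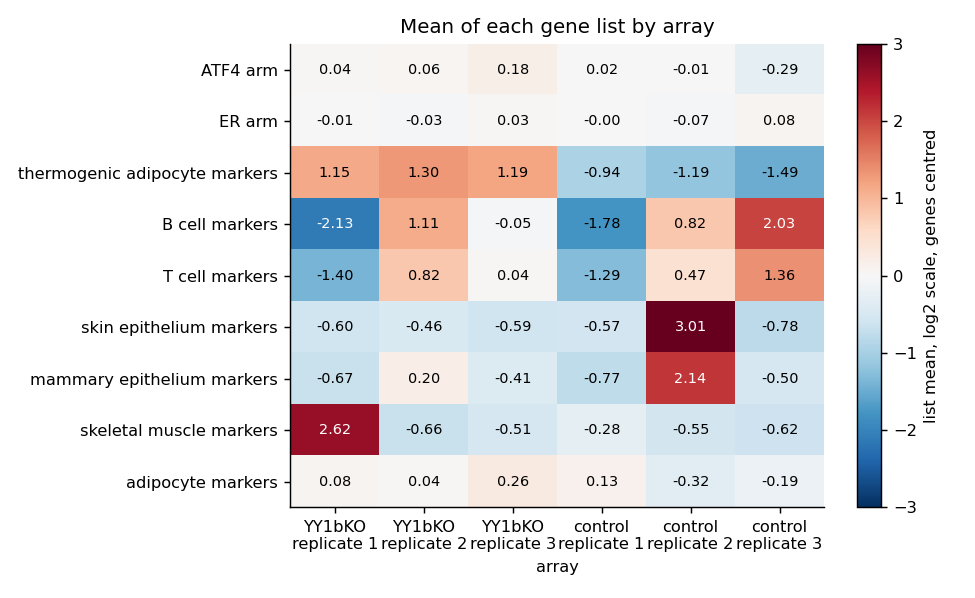
Mean of each gene list on each array, after centring every gene on its mean over the 6 arrays (log2 scale, colour and printed value). The ATF4 arm is lowest on control replicate 3 (-0.29), the ER arm stays between -0.07 and 0.08, and the marker lists show high epithelial markers on control replicate 2 and high muscle markers on YY1bKO replicate 1.

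Further genes linked to ATF4, which are no members of the arm, lay mostly on the higher side. Of 36 listed, 33 were measured, and 24 (72.7%) were higher in YY1bKO, against 51.0% of all genes. The median was 0.17, and 0 passed the adjusted threshold. At an unadjusted p under 0.05, 6 were higher and 0 lower, where 8.45% and 1.99% of all genes were. Lonp1, a mitochondrial protease, read 772.5, 739.7 and 787.3 in YY1bKO and 509.5, 471.0 and 418.3 in control, without overlap (0.72 ± 0.10, limma adjusted p = 0.139). Eprs (0.46) and Wars (0.26) encode tRNA synthetases, of which 9 of 11 measured were higher with a median of 0.17. The other leading genes were Sqstm1 (0.45), an autophagy receptor, and Gpt2 (0.38), an alanine aminotransferase of mitochondria. Of the genes of serine and one-carbon synthesis 2 of 5 were higher, with a median of -0.01. Phgdh, the first enzyme of serine synthesis, was higher without overlap in all 4 probe sets (0.28, 0.77, 0.38 and 0.25). Psph (-1.09), the last enzyme of that path, was set by control replicate 2 alone (2821.4, against 283.1 and 321.9 on the other control arrays). Both were named after their values were seen.

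The machinery that feeds ATF4 showed small differences. Of 15 listed genes of the eIF2 kinases, eIF2 and its exchange factor eIF2B, 12 were measured, with a median of 0.05. In YY1bKO 9 were higher (75%, against 51.0% of all genes). At an unadjusted p under 0.05, 3 were higher and 0 lower, where 8.45% and 1.99% of all genes were. Those 3 were Eif2b5 (0.29), the catalytic subunit of eIF2B, Ppp1r15b (0.28), the constitutive eIF2 phosphatase subunit, and Eif2ak1 (0.32), the heme-regulated kinase. The 3 probe sets of Eif2ak1 gave 0.32, 0.21 and -0.25, the first and second higher without overlap. The third had mean intensities of only 10.9 in YY1bKO and 13.1 in control, under the lower quartiles of the arrays. The next by p were Eif2s3x (-0.12), a subunit of eIF2 that was lower in YY1bKO without overlap, and Eif2b4 (-0.11), another subunit of eIF2B. Limma's adjusted p for these 5 was 0.366 or more.

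The medians of further ER gene lists lay close to that of the ER arm. Of 35 listed genes of folding and quality control, 33 were measured, with a median of 0.03. In YY1bKO 21 were higher (63.6%, against 51.0% of all genes). At an unadjusted p under 0.05, 3 were higher and 0 lower, where 8.45% and 1.99% of all genes were. Those 3 were Selenok (0.31) and Derl1 (0.39), which act in ER-associated degradation, and Fkbp2 (0.31), a prolyl isomerase of the ER. The other probe sets of Derl1 gave 0.55, 0.69 and 0.75, and all 4 were higher without overlap. The next genes by p were Dnajc10 (0.22), an ER reductase, and Mbtps1 (0.15), the protease that first cuts ATF6. Of 31 listed genes of translocation and secretion, 28 were measured, with a median of -0.03, and 12 were higher (42.9%). At an unadjusted p of 0.05, 1 passed as higher and 2 as lower, where 8.45% and 1.99% of all genes did. The lower pair, Spcs3 (-0.42) and Sec11c (-0.40), are subunits of the signal peptidase, and both were highest on control replicate 3. Sec31a (0.35), a coat subunit of export vesicles, was the higher one, and Sec61a1 (-0.19) and Sec62 (0.17), parts of the translocon, were the next by p.

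**Figure D5:**
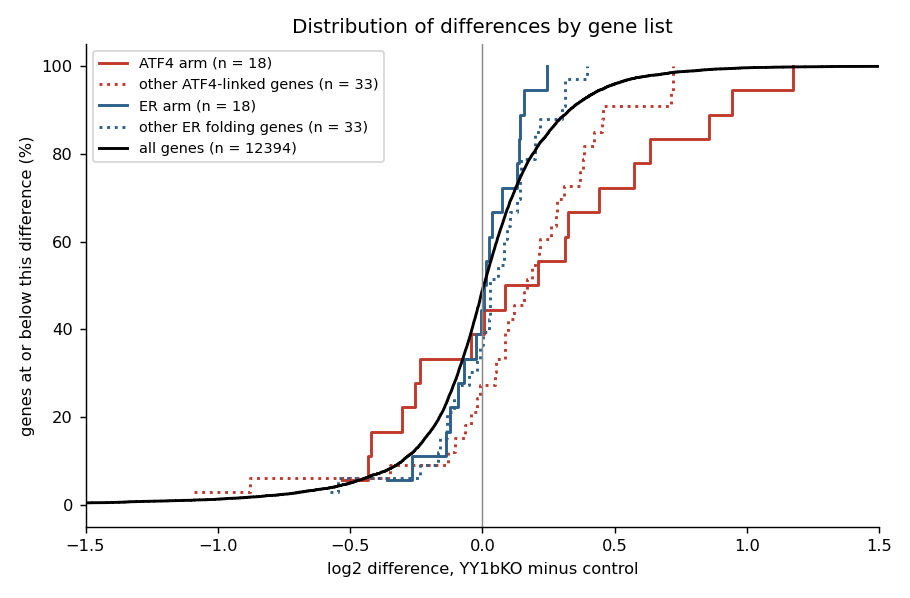
Cumulative share of genes (percent) at or below each log2 difference, YY1bKO minus control, for the arms (solid), the further ATF4-linked and ER folding genes (dotted) and all 12394 genes (black). The ER arm climbs steeply around 0, with 15 of 18 genes within 0.2, while the ATF4 arm is spread from -0.53 to 1.17.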

How the data were processed

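The deposited table holds linear intensity values of 22690 probe sets on 6 arrays, made by the authors with RMA, per the submitters' processing notes. No version of RMA is stated, and that the scale is linear was judged from the range of the values. Of the probe sets, 20393 carry 1 gene name in the platform annotation, 691 several and 1606 none. Probe sets with 1 name were used, with the highest mean per gene, which left 12394 genes. Differences were taken on log2(intensity + 1), a pseudocount of 1, which slightly understates the change of dim genes, with limma 3.58.1 in R 4.3.3 (lmFit, eBayes) and Benjamini-Hochberg adjustment over all 12394 genes. The exact permutation tests were two-sided.

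The members and lists were chosen with earlier results of these data known. Values on every array are given for members with an unadjusted p under 0.05, groups that do not overlap, or a place among 8 preset genes, and for a few further members that were chosen after their values were seen. Of each further list up to 5 genes with the smallest p are named. The script was checked on simulated data with planted differences larger than that of any member. Recovery of differences of the sizes reported here was not checked. Array medians ran from 123.15 to 130.35, lower quartiles from 29.9 to 31.7, and Spearman correlations between arrays from 0.946 to 0.993. The number of arrays limits the precision. Promoter windows are from RefSeq (GRCm38.p6). Other scalings, pseudocounts, filters, variance settings, a replicate block and left-out arrays were tried. A fit without the arrays high in epithelial and muscle markers and a fit with lymphocyte markers as a covariate were added after seeing the data.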

Additional observations from a re-analysis of the deposited data

How the results depend on the processing

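In each of the 19 alternatives 0 of the 36 members passed the adjusted threshold. Trib3, Asns and Eif4ebp1 stayed higher at an unadjusted p under 0.05 in all 19, Ddit3 in 18, Chac1 in 17 and Atf5 in 16, and Edem1 stayed lower in 12. The count of all genes past the threshold, 4, was 9 with a pseudocount of 16, 2 without probe sets below the 50th percentile, 12 with robust eBayes, 9 with array weights, 1 without both control array 2 and YY1bKO array 1, and 1 to 5 with 1 array left out (1 without any single YY1bKO array). Without those 2 arrays the ATF4 median was 0.37 and the difference between the arms 0.38. With 1 array left out the ATF4 median ran from -0.0063 to 0.26 and the difference between the arms from -0.021 to 0.29. The count of lower ER genes, 1, was 0 with array medians subtracted, 0 without the 2 arrays, 2 with the lymphocyte covariate and 0 to 1 with 1 array left out, where higher ER genes numbered 0 to 1. The cause was not tested, beyond the smaller number of arrays or genes in some of these fits. With a replicate block 1 gene passed the threshold and 7 members of the ATF4 arm were higher at an unadjusted p under 0.05 (8.61% of all genes). Deviations of same-numbered arrays correlated at 0.607, 0.097 and 0.031, and not every array correlated best with its own number, so the numbers were not taken to pair the samples. The sign of 14 members changed in at least 1 alternative, none of them at an unadjusted p under 0.05. Dim probe sets such as that of Slc7a11 are limited by background.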
